A study of Mus musculus with 30 samples.

Results

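Adenylyl cyclases, the receptors that switch them on and the G protein between them were followed as 9 genes in mouse CD4 T cells. The genes were chosen by name: the adenosine receptor genes Adora2a and Adora2b, the prostaglandin E2 receptor genes Ptger2 and Ptger4, the G protein gene Gnas, and the cyclase genes Adcy3, Adcy6, Adcy7 and Adcy9. All 9 were present among the 25865 gene symbols counted in naive and activated cells and among the 25860 counted in forskolin-treated cells. By its title, the study concerns a circuit of protein kinase A (PKA), which cyclic AMP activates, and the factor CREB in Th1 fate. Its tested cells carry a PKA knockout (KO, labelled PKAKO) and its controls are labelled WT, both taken from spleen and lymph nodes. Cells of each genotype were naive (enriched with a CD4 kit and sorted), activated for 3 days with antibodies to CD3 and CD28, or rested for 3 days in IL-7 and then given forskolin at 1 ug/mL for 4 h. RNA-seq covered all 3 conditions and ATAC-seq, which counts reads in open chromatin, covered naive and activated cells, with 3 libraries in every group. The labels name no deleted gene, no Cre driver, no strain and no age, and they do not say whether the 3 libraries came from separate animals. The p-values therefore measure the spread between libraries, which may be technical.

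Receptors of this kind couple to the stimulatory G protein Gs, whose alpha subunit is the main product of Gnas. Active Gs alpha binds membrane adenylyl cyclases, which convert ATP into cyclic AMP, and cyclic AMP releases the catalytic subunits of PKA. In T cells, adenosine acting on A2a receptors and prostaglandin E2 acting on EP2 and EP4 receptors are known to raise cyclic AMP and to restrain activation. PKA is also known to feed back on the pathway by phosphorylating phosphodiesterases and certain cyclases. Forskolin, a plant diterpene, activates membrane adenylyl cyclases directly, without a receptor.

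Prkaca, which encodes the PKA catalytic subunit alpha, checked the labels. Its level was 2.33 ± 0.273 CPM (counts per 1000000 counts of a library) in naive KO cells, against 34.8 ± 5.11 CPM in naive WT cells (SD, n = 3 each), and it was lower in KO in all 3 conditions (log2 fold changes of -3.91, -5.49 and -3.45 in naive, activated and forskolin-treated cells). RNA libraries held 7665955 to 11950488 counts and ATAC libraries 18522373 to 25318916 counts in sites. A gene with no count in an RNA library lay under 3 counts, or 0.251 to 0.391 CPM. All 10 CD4 T cell markers were detected in every RNA group. The summed level of 7 B cell markers was 171 to 198 CPM in activated KO and 106 to 132 CPM in activated WT libraries, with Ighm and Cd79b higher in KO and Pax5 at 0 in KO. It was 326 to 337 CPM in forskolin-treated KO and 169 to 191 CPM in forskolin-treated WT libraries, with Ms4a1 and Pax5 at 0 in WT. In these bulk samples, fewer cells of a type and less RNA per cell cannot be told apart. Levels below are compared within a gene and not between genes, because no transcript lengths were used.

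Start-site sequences of 7 of the 9 genes were found in RefSeq (GRCm38.p6), in 13 windows from 250 bases before to 50 bases after a transcript start. Both strands were searched for TGACGTCA, the full cyclic AMP response element bound by CREB, and for its core TGACG. The full element was in none of the 13 windows, against 1.79% of 32817 windows of all genes. The core was in 5 of the 13 windows (38.5%), against 20.8% of all windows, and 2 of the 5 overlap in Gnas and hold the same match. A match is a description of the letters and not a site of binding. The 250 bases before the start are shown for Ptger4 and Adora2b, receptor genes that differed between activated KO and WT cells, and for Gnas and Adcy7 as examples that hold the core. An ATAC site of these cells lies over part or all of each stretch, as it does for Adcy3 and Adcy9, which are not shown. Capitals mark the core, which reads CGTCA where it lies on the opposite strand.

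Ptger4 (chr15:5244188-5244437, minus strand): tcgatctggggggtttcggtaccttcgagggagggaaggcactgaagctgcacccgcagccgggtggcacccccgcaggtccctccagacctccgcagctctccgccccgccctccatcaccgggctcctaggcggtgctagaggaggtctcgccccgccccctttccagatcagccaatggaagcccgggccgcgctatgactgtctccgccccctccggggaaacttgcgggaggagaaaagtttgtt
Adora2b (chr11:62248734-62248983, plus strand): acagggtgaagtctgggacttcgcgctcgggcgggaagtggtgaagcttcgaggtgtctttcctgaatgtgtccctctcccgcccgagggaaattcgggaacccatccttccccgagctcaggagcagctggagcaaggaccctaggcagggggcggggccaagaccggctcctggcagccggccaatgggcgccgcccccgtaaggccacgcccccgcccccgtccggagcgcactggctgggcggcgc
Gnas (chr2:174327499-174327748, plus strand): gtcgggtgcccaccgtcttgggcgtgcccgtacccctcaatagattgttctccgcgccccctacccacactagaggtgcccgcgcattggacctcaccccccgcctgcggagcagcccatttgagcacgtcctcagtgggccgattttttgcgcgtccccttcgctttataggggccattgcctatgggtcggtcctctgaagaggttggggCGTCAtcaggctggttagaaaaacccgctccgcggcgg
Adcy7 (chr8:88282742-88282991, plus strand): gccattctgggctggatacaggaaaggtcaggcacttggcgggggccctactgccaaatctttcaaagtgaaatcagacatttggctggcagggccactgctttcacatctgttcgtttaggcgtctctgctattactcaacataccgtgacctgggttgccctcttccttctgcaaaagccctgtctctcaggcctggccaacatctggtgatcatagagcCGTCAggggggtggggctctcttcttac

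Relative to the transcript start, the core lies at -38 in Gnas and at -28 in Adcy7. The stretches of Ptger4 and Adora2b hold none. Of the other windows, that of Adcy9 holds the core at -24 and that of a further Gnas start at -216.

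Activated KO cells were compared with activated WT cells to see which of these genes differ in RNA between the genotypes. The data hold no measure of cyclic AMP itself. Ptger4 and Adcy3 were higher in activated KO cells, and Adcy6, Adora2a and Adora2b were lower. Across all genes 14.9% of 11980 passed the same test, with 5.89% higher and 9.04% lower, and 5 of the 9 members did (edgeR quasi-likelihood test, Benjamini-Hochberg adjustment over all genes, adjusted p under 0.05). The median absolute log2 change of the 9 was 0.40, against 0.15 over all genes tested. Adora2b passed the filter on low counts only through activated WT cells, where it is higher, so it adds nothing to that count or that median. The members were chosen with earlier results of these data known, so the median is a description only. In naive cells none of the 8 members tested differed between the genotypes, where 0.242% of genes did. In forskolin-treated cells 6 of 8 members were higher in KO and none was lower, where 38.5% of 11658 genes were called with 19.7% higher and 18.8% lower. Adcy6 and Adora2a were therefore lower in KO after activation and higher in KO after forskolin. With forskolin Ptger2 passed the filter on low counts through its KO libraries, where it is higher, so its call adds nothing to the count of 6.

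**Figure D1:**
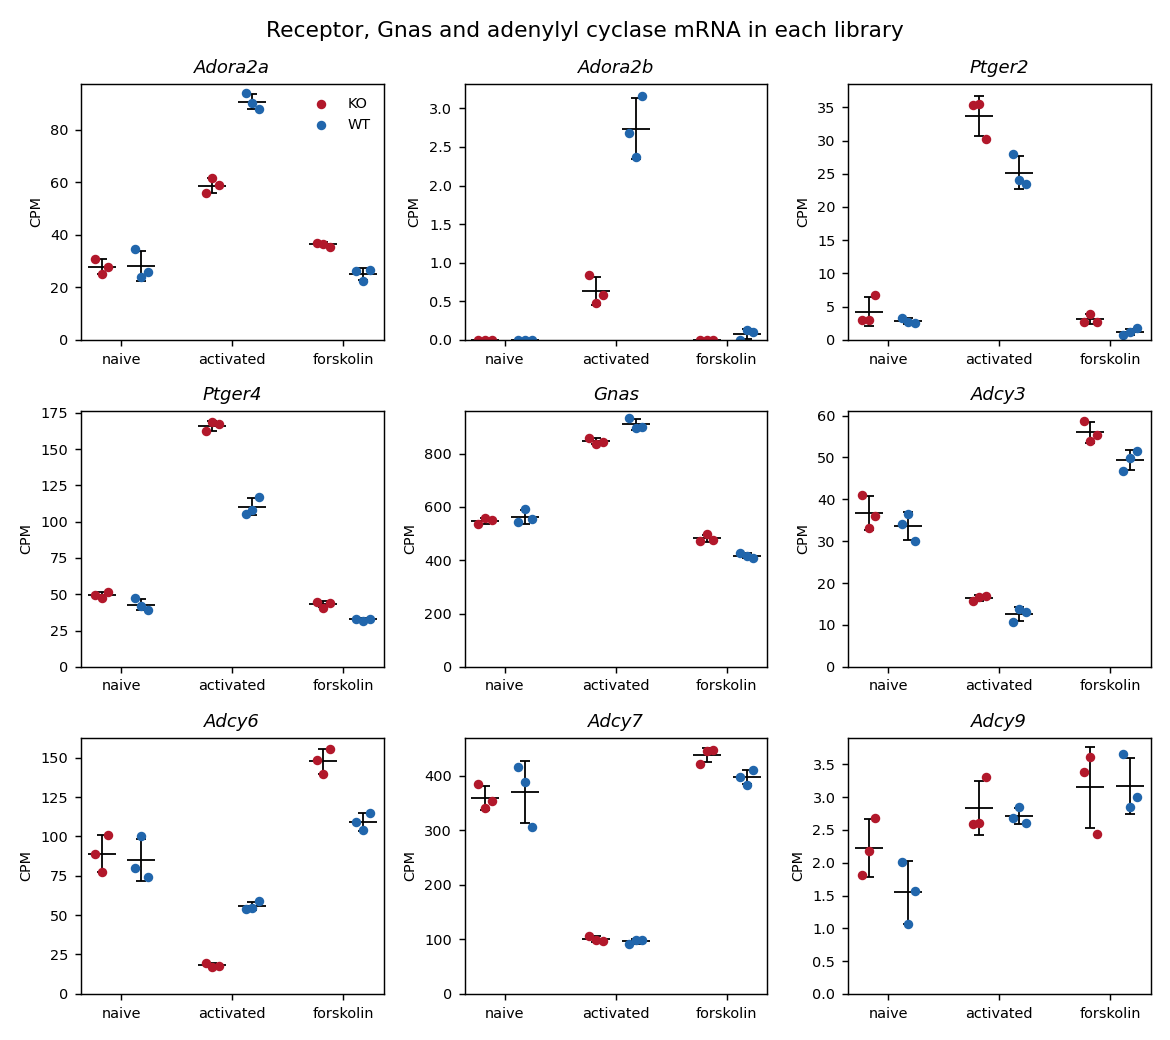
Level of each gene in CPM (vertical axes, starting at 0) in every RNA library, by condition; points are libraries, with KO in red left of WT in blue, and black bars give the mean and SD of 3 libraries. In activated cells the 3 KO libraries of Adcy6 lie between 17.2 and 19.5 CPM, below the 3 WT libraries at 53.8 to 59.0 CPM, whereas with forskolin the KO libraries lie above.

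Adora2a encodes the A2a receptor, the high-affinity adenosine receptor of T cells. In activated cells it stood at 55.8, 61.5 and 59.0 CPM in the KO libraries and at 94.0, 90.3 and 88.1 CPM in the WT libraries. Every activated KO library was below every WT library, and the log2 fold change of KO over WT was -0.65 ± 0.10 (SE, adjusted p = 0.000126). In naive cells its levels were 30.8, 25.0 and 27.9 CPM in KO and 34.7, 24.0 and 25.9 CPM in WT. The naive groups overlapped fully (-0.03 ± 0.11, adjusted p = 1). With forskolin the libraries stood at 36.9, 36.7 and 35.5 CPM in KO and at 26.4, 22.4 and 26.5 CPM in WT. Here every KO library was above every WT library (0.51 ± 0.08, adjusted p = 5.37e-06).

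Adora2b encodes the A2b receptor, which needs more adenosine to respond than A2a. No count fell on it in any of the 6 naive libraries. In activated cells it reached 0.837, 0.483 and 0.583 CPM in KO, a total of 21 counts, and 2.68, 2.37 and 3.16 CPM in WT, a total of 89 counts. The activated groups did not overlap (-2.09 ± 0.34, adjusted p = 0.000784), and the difference rests on these small counts. With forskolin it had no count in KO and 2 counts in WT, both under the floor of 3 counts, and was not tested. Against naive cells at 0, taken at 3 counts over the group, the activated level was at least 5.88-fold higher in KO and at least 26.5-fold higher in WT.

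Ptger4 encodes EP4, a Gs-coupled receptor for prostaglandin E2. Once cells were activated it stood at 162, 169 and 168 CPM in KO and at 106, 108 and 117 CPM in WT. The KO libraries were all higher (0.57 ± 0.06, adjusted p = 7.13e-06). In naive cells the levels were 49.8, 47.6 and 51.8 CPM in KO and 47.1, 42.2 and 39.4 CPM in WT. The naive groups did not overlap, but the difference did not pass the test (0.19 ± 0.07, adjusted p = 0.730). With forskolin the levels were 44.9, 40.7 and 43.8 CPM in KO and 32.9, 31.8 and 33.2 CPM in WT, again without overlap (0.38 ± 0.07, adjusted p = 7.14e-05). Ptger4 was the receptor gene of the set that was called in the same direction in both activated and forskolin-treated cells.

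Ptger2 encodes EP2, the other Gs-coupled prostaglandin E2 receptor. After activation it stood at 35.4, 35.5 and 30.2 CPM in KO and at 28.0, 24.0 and 23.5 CPM in WT. All KO libraries were above all WT libraries, but the difference did not pass the test (0.40 ± 0.16, adjusted p = 0.120). It passed with limma-voom (adjusted p = 0.0337) and in a fit of the 6 activated libraries alone (adjusted p = 0.0159). In naive cells KO replicate 3 stood apart at 6.71 CPM, with the other 5 libraries at 2.54 to 3.29 CPM. With forskolin it was at 2.63, 3.93 and 2.72 CPM in KO, 98 counts in all, and at 0.783, 1.12 and 1.72 CPM in WT, 31 counts in all. It was higher in KO there (1.29 ± 0.33, adjusted p = 0.00221), from a low level in both genotypes.

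Gnas encodes the alpha subunit that joins these receptors to the cyclases. In activated cells the gene stood at 859, 836 and 843 CPM in KO and at 935, 895 and 902 CPM in WT. The KO libraries were all lower, and the difference missed the threshold (-0.13 ± 0.06, adjusted p = 0.206), although it passed in a fit of the 6 activated libraries alone (adjusted p = 0.0285). With forskolin it stood at 472, 498 and 476 CPM in KO and at 426, 416 and 407 CPM in WT, and was higher in KO (0.19 ± 0.04, adjusted p = 8.29e-05). In naive cells the levels were 535 to 559 CPM in KO and 544 to 593 CPM in WT, and the groups overlapped. The annotated span of Gnas overlaps the antisense gene Gnasas1 and the noncoding gene Gm30189, and whether the counts use strand is not given in the sources used here. Gnasas1 held 1 to 36 counts per group, so few counts were given to it.

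Adcy6 encodes a membrane cyclase that calcium and PKA are known to inhibit. In activated cells it stood at 19.5, 17.2 and 17.8 CPM in KO and at 53.8, 54.6 and 59.0 CPM in WT. The gap was wide against the spread, at -1.64 ± 0.11 on the log2 scale (adjusted p = 1.57e-08). In naive cells the libraries ranged over 77.4 to 101 CPM in KO and 74.3 to 100.3 CPM in WT, with full overlap (0.04 ± 0.10, adjusted p = 1). With forskolin they stood at 149, 139.6 and 155 CPM in KO and at 109, 104 and 115 CPM in WT. The forskolin groups did not overlap, and KO was higher (0.41 ± 0.05, adjusted p = 2.17e-08).

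Adcy7 encodes a cyclase that is widely expressed in blood cells. In activated cells its libraries overlapped, with 96.8 to 107 CPM in KO and 90.6 to 99.3 CPM in WT (0.04 ± 0.08, adjusted p = 0.783). In naive cells they ranged over 341 to 384 CPM in KO and 306 to 417 CPM in WT. With forskolin KO libraries held 422, 445 and 447 CPM and WT libraries 399, 384 and 410.1 CPM, a small difference (0.12 ± 0.04, adjusted p = 0.00967). That call was lost without WT replicate 2 (adjusted p = 0.0644). The Adcy7 span overlaps Brd7, whose mean levels were 99.7 CPM in activated KO and 95.9 CPM in activated WT cells.

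Adcy3 encodes a cyclase best known from olfactory neurons. In activated cells it stood at 15.7, 16.7 and 17.0 CPM in KO and at 10.7, 13.9 and 13.1 CPM in WT. The KO libraries were all higher and the difference was near the threshold (0.37 ± 0.12, adjusted p = 0.0406). It was lost with DESeq2 (adjusted p = 0.0574), with limma-voom (adjusted p = 0.0544), and without WT replicate 1 or 3 or any KO replicate (adjusted p of 0.0574 to 0.1805). With forskolin it stood at 58.7, 53.9 and 55.3 CPM in KO and at 46.8, 49.9 and 51.5 CPM in WT (0.16 ± 0.06, adjusted p = 0.0520). The forskolin groups did not overlap, and the test was missed narrowly. The Adcy3 span overlaps Cenpo, whose mean levels were 28.2 CPM in activated KO and 23.6 CPM in activated WT cells. Whether reads of Cenpo add to the counts of Adcy3 was not tested.

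Adcy9 encodes a cyclase that responds weakly to forskolin. It held 1.81 to 2.69 CPM in naive KO and 1.06 to 2.02 CPM in naive WT libraries, 2.59 to 3.31 CPM in activated KO and 2.60 to 2.85 CPM in activated WT libraries, and 2.45 to 3.62 CPM in forskolin-treated KO and 2.85 to 3.65 CPM in forskolin-treated WT libraries. The genotypes overlapped in every condition. At 44 to 101 counts per group, its KO over WT changes were known only to SEs of 0.24 to 0.29 on the log2 scale.

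**Figure D2:**
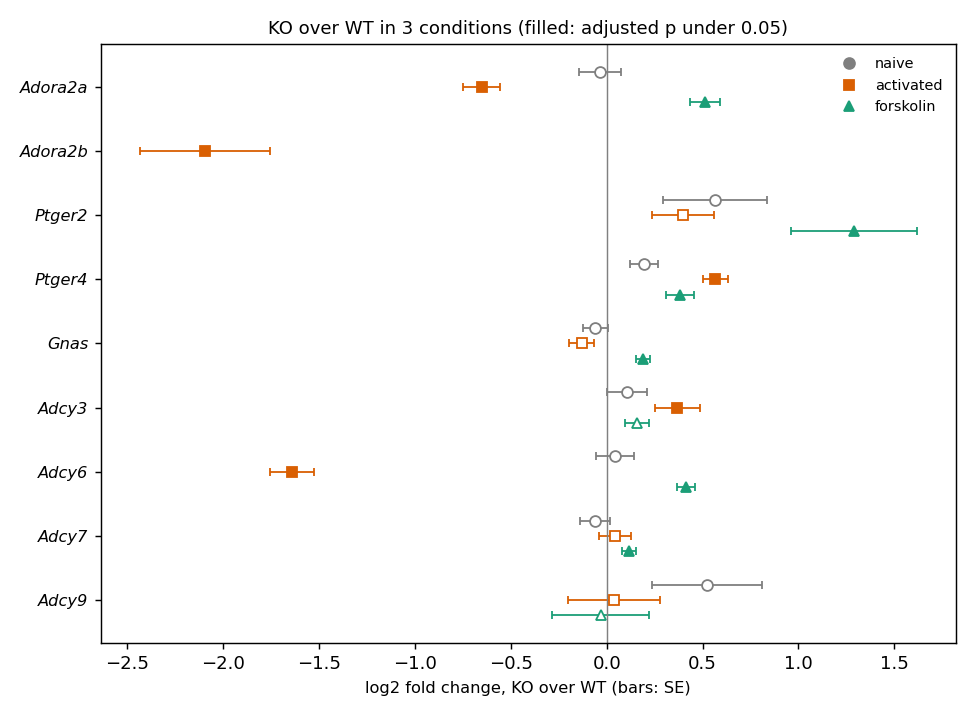
Log2 fold change of KO over WT (horizontal axis) with its SE for each gene in naive, activated and forskolin-treated cells; filled symbols passed the test at adjusted p under 0.05. Adcy6 lies at -1.64 in activated and 0.41 in forskolin-treated cells, and the naive symbols are all open; Adora2b is shown in activated cells only.

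For naive cells the count of 0 members was the same with edgeR, DESeq2 and limma-voom, and Ptger4 alone had an unadjusted p under 0.05 in edgeR. In forskolin-treated cells the members' median log2 change was 0.29, against -0.0030 over all genes tested. Ptger2, which passed the filter on low counts there through its KO libraries, is included in that median. Forskolin libraries held 9404642 to 11802115 counts in KO and 7665955 to 9312606 counts in WT. The summed level of 3 regulatory T cell markers was 165 to 199 CPM in forskolin-treated KO and 41.8 to 48.5 CPM in forskolin-treated WT libraries, led by Il2ra and Foxp3, and that of 10 CD4 T cell markers was 3464 to 3615 CPM in KO and 4293 to 4388 CPM in WT. In activated cells the regulatory T cell markers summed to 646 to 700.1 CPM in KO and 794 to 916 CPM in WT. Of the 3, only Il2ra was called there, and it was lower in KO (-0.36 ± 0.09, adjusted p = 0.00830). Foxp3 (0.04 ± 0.32) and Ikzf2 (0.46 ± 0.28) were not called. The 2 CD8 T cell markers summed to 22.2 to 26.5 CPM in forskolin-treated KO and 16.2 to 19.2 CPM in forskolin-treated WT libraries, with Cd8b1 higher in KO (0.47 ± 0.11, adjusted p = 0.00133). The part of these markers, of the B cell markers above and of depth in the members' differences was not tested. There was no rested group without forskolin, so the comparison is between genotypes under forskolin and not a response to it.

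The change of the KO effect between conditions was tested directly. Between activated and naive cells it differed for 3 members, where 3.70% of genes did. The difference was -1.69 ± 0.15 on the log2 scale for Adcy6 (adjusted p = 2.55e-06), -0.62 ± 0.15 for Adora2a (adjusted p = 0.0213) and 0.37 ± 0.10 for Ptger4 (adjusted p = 0.0379). Between forskolin-treated and activated cells it differed for 3 members, where 18.1% of 12607 genes did: 2.09 ± 0.14 for Adcy6 (adjusted p = 5.31e-10), 1.20 ± 0.13 for Adora2a (adjusted p = 3.82e-07) and 0.36 ± 0.08 for Gnas (adjusted p = 0.00381). Between forskolin-treated and naive cells it differed for 2, where 10.9% of genes did, with Adora2a at 0.57 ± 0.14 (adjusted p = 0.00762) and Gnas at 0.28 ± 0.08 (adjusted p = 0.0319). These 3 tests share libraries. The forskolin libraries come from their own table, and only KO effects taken within a table were compared across tables. Most single libraries left out ended the Ptger4 call (10 of 12, adjusted p up to 0.110) and the Gnas call against naive cells (8 of 12, up to 0.0901), as did dropping the filter on low counts, and 3 of 12 ended the Adora2a call between activated and naive cells (up to 0.0578).

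Activated cells were compared with naive cells in each genotype to see which of these genes move with activation itself. Receptor genes and Gnas rose in both genotypes, while Adcy3, Adcy6 and Adcy7 fell in both. In KO cells 8 of 9 members were called, where 82.1% of genes were (42.3% higher and 39.8% lower), and in WT cells 9 of 9, where 82.6% of genes were (42.3% higher and 40.3% lower). Activation changes most genes in these cells, so the counts are near the background, and Adora2b, which had no naive count and passed the filter through activated cells, adds nothing to either. The sizes and directions carry the description. Ptger2 rose to 33.7 ± 3.02 CPM in activated KO cells, against 4.26 ± 2.12 CPM in naive KO cells (log2 fold change 2.86 ± 0.20, adjusted p = 9.71e-10). In WT cells it rose to 25.2 ± 2.48 CPM, against 2.83 ± 0.404 CPM in naive cells (3.03 ± 0.22, adjusted p = 1.12e-09). Ptger4 rose by 1.61 ± 0.07 in KO and 1.24 ± 0.07 in WT cells (adjusted p = 2.67e-13 and 1.22e-11), and Adora2a by 0.95 ± 0.10 and 1.57 ± 0.10 (adjusted p = 1.53e-07 and 1.19e-10). Gnas rose by 0.50 ± 0.06 in KO and 0.57 ± 0.06 in WT cells (adjusted p = 1.45e-06 and 2.64e-07).

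Of the cyclases, Adcy7 fell to 101 ± 5.27 CPM in activated KO cells, against 359.7 ± 22.3 CPM in naive KO cells (-1.96 ± 0.08, adjusted p = 2.61e-13), and the WT change was -2.07 ± 0.08 (adjusted p = 1.29e-13). Adcy3 fell by -1.28 ± 0.11 in KO and -1.54 ± 0.11 in WT cells (adjusted p = 5.16e-09 and 5.52e-10). Adcy6 fell in both genotypes, by -2.42 ± 0.11 in KO and -0.73 ± 0.10 in WT cells (adjusted p = 9.81e-13 and 2.84e-06). These 2 changes differ, by the difference of KO effects given above. Adcy9 rose in WT cells (0.70 ± 0.27, adjusted p = 0.0242), a call lost without naive or activated WT replicate 2 (adjusted p up to 0.138), and in KO cells its change was 0.21 ± 0.25 (adjusted p = 0.442).

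**Figure D3:**
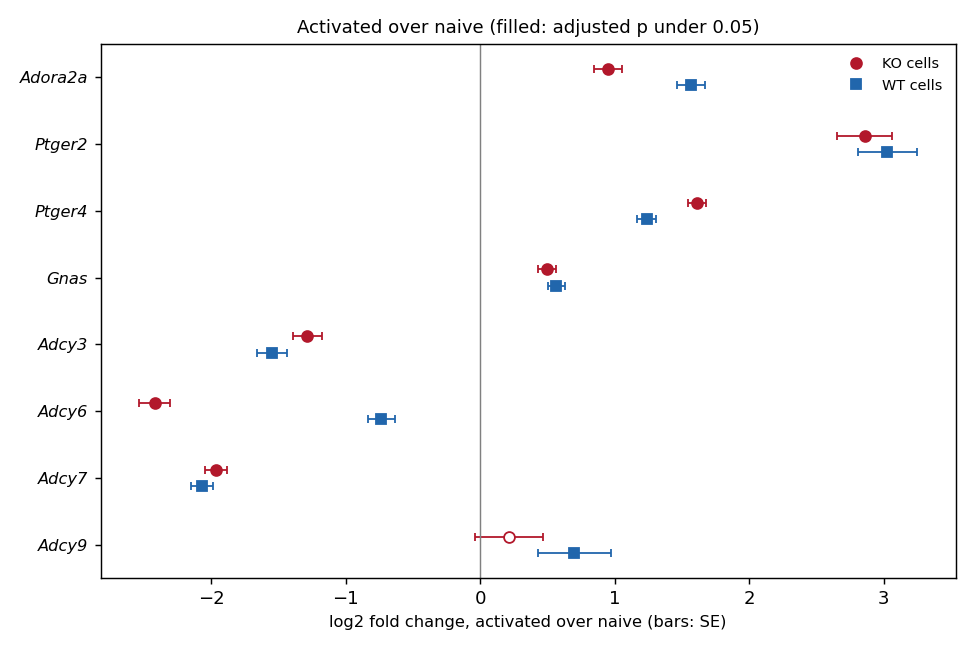
Log2 fold change of activated over naive cells (horizontal axis) with its SE, for KO cells (red circles) and WT cells (blue squares); filled symbols passed the test, and Adora2b is left out because its naive libraries had no count. Adcy6 lies at -2.42 in KO and -0.73 in WT cells, and Adora2a at 0.95 in KO and 1.57 in WT cells.

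Open chromatin gave a separate readout of the same genes. In windows of the 9 gene spans and 10 kb on either side lay 71 of the 110808 ATAC sites, and all 71 were tested. In activated cells 24 of them (33.8%) differed between KO and WT, with 11 more open and 13 less open in KO. Over all 110797 sites tested 28.4% were called, with 10.9% higher and 17.5% lower. The sites chr12:4216607-4217007 at Adcy3 and chr10:75336352-75336752 at Adora2a passed the filter on low counts only with activated WT libraries, where they are higher. These sites therefore add nothing to the count of 24. In naive cells 1 of 71 differed, and it was more open in KO, where 1.54% of all sites were called and 0.938% were higher. Activation itself changed 61 of the 71 sites in KO cells, where 88.5% of all sites changed, and 60 in WT cells, where 89.9% did. All 5 sites of Adora2b and all 5 of Ptger2 opened in both genotypes. Some of the 71 sites held so few naive counts that they passed the filter on low counts only through activated cells. Among them are chr11:62261333-62261733, chr11:62266476-62266876 and chr11:62268409-62268809 at Adora2b, and chr14:44997340-44997740 and chr14:45009339-45009739 at Ptger2. The opening of such sites adds nothing to these counts. Coordinates are those of the files (mm10), and gene spans are those of RefSeq on GRCm38.p6. Whether a site lies in an exon or an intron was not determined.

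The sites of the 2 adenosine receptor genes that were called were all less open in activated KO cells. Inside the Adora2b span (chr11:62248984-62266452), the site at chr11:62261333-62261733 held 41, 39 and 48 counts in KO and 220, 198 and 198 counts in WT. The groups were far apart (log2 fold change -2.14 ± 0.16, adjusted p = 2.20e-09), and in naive cells the site held 7 counts over 3 KO libraries and 1 count over 3 WT libraries. Another at chr11:62268409-62268809, which overlaps Zswim7, held 65, 74 and 60 counts in KO and 210, 141 and 145 counts in WT (-1.18 ± 0.21, adjusted p = 0.000210). By contrast the site over the Adora2b start, at chr11:62248830-62249230, did not pass the test, with 16.7 ± 0.915 CPM in KO against 19.0 ± 0.438 CPM in WT (-0.21 ± 0.12, adjusted p = 0.219). At Adora2a the site at the lower end of the span, chr10:75316629-75317029, held 933, 898 and 884 counts in KO and 1347, 1310 and 1241 counts in WT (-0.39 ± 0.06, adjusted p = 4.66e-05). A weaker one beyond the upper end, chr10:75336352-75336752, held 17, 25 and 8 counts in KO and 41, 41 and 40 counts in WT (-1.15 ± 0.36, adjusted p = 0.0187), and lost its call without KO replicate 3 (adjusted p = 0.117). This weaker site passed the filter on low counts only with the WT libraries, where it is higher, so its call adds nothing.

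The cyclase site with the smallest p lay outside Adcy6 (span chr15:98589978-98610287), 7133 bases above its upper end at chr15:98617420-98617820. That site held 202, 157 and 173 counts in activated KO and 878, 846 and 808 counts in activated WT libraries, against 22 to 28 counts in naive libraries of both genotypes. It was less open in activated KO cells (-2.13 ± 0.10, adjusted p = 3.41e-12), and the naive difference was 0.03 ± 0.21 (adjusted p = 0.979). It opened with activation by 2.28 ± 0.15 in KO and 4.44 ± 0.13 in WT cells on the log2 scale. Of the 7 sites of Adcy6, 3 were less open and 1 was more open in activated KO cells. The upper end of the span, chr15:98609887-98610287, was less open (-0.47 ± 0.12, adjusted p = 0.00484). So was the lower end, chr15:98589649-98590049 (-0.71 ± 0.20, adjusted p = 0.0120, but 0.0650 without KO replicate 3). Between them, the site at chr15:98596650-98597050 went the other way, with 44, 43 and 49 counts in KO and 20, 16 and 23 counts in WT (1.32 ± 0.25, adjusted p = 0.000405). At Adcy3 the called sites at chr12:4216607-4217007 (-2.39 ± 0.30) and chr12:4202695-4203095 (-0.67 ± 0.17) both overlap Cenpo, a gene whose span overlaps that of Adcy3. The first passed the filter on low counts only through activated WT cells, where it is higher, so its call adds nothing. The direction of both sites is the reverse of the RNA of Adcy3, which was higher in KO.

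Ptger4 had 8 sites, of which 4 were more open and 1 was less open in activated KO cells. The site over its start, chr15:5244079-5244479, held 1847, 1755 and 1846 counts in KO and 1680, 1690 and 1531 counts in WT. That is 85.2 ± 0.619 CPM in KO against 69.1 ± 2.39 CPM in WT, a small difference beyond the spread (0.28 ± 0.05, adjusted p = 8.81e-05). The site just below the span, chr15:5232215-5232615, held 70, 71 and 72 counts in KO and 31, 49 and 33 counts in WT (1.04 ± 0.21, adjusted p = 0.000844). The exception, chr15:5252355-5252755, held 66, 70 and 48 counts in KO and 129, 135 and 120 counts in WT (-0.93 ± 0.23, adjusted p = 0.00378).

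At Gnas 3 of 10 sites were more open in activated KO cells. Among them, chr2:174327214-174327614 overlaps Gm30189 and reaches into the stretch shown above (0.26 ± 0.07, adjusted p = 0.00767, but up to 0.0844 without WT replicate 3 or KO replicate 3). Another, chr2:174344099-174344499, held 201, 186 and 188 counts in KO and 101, 119 and 112 counts in WT (0.92 ± 0.13, adjusted p = 1.95e-05). The site over the further Gnas start with the core at -216, chr2:174329655-174330055, was not called. That site had 18.1 ± 0.499 CPM in activated KO and 18.3 ± 1.54 CPM in activated WT cells. Which product of Gnas begins at each start was not determined. At Adcy7 1 of 13 sites differed between the genotypes. The site over the Adcy7 start shown above, chr8:88282706-88283106, had 4.66 ± 0.505 CPM in activated KO and 4.995 ± 0.542 CPM in activated WT cells, and opened with activation by 4.15 ± 0.35 in KO and 4.44 ± 0.35 in WT cells. It held 0 to 6 counts per naive library and passed the filter on low counts only through activated cells, so its opening adds nothing. At another Adcy7 start, the stronger site chr8:88288813-88289213 had 37.6 ± 1.93 CPM in activated KO and 36.8 ± 2.25 CPM in activated WT cells. In naive cells this stronger site had 26.6 ± 1.10 CPM in KO and 25.7 ± 1.58 CPM in WT. The RNA of Adcy7 fell with activation in both genotypes. Of the 13 sites of Adcy7, activation opened 4 and closed 6 in each genotype. At Adcy9 the site chr16:4381461-4381861 was the 1 called in naive cells (0.64 ± 0.15, adjusted p = 0.0257), and the call was lost without naive WT replicate 2 or KO replicate 3.

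The authors' deposited table for activated cells, whose fold is WT minus KO, called 5.16% of sites at an FDR under 0.05 and 4 of the 71. Those 4 were the site above Adcy6 (fold 2.25, FDR 0.000345), both Adora2b sites named above (folds 2.27 and 1.32, FDR 5.25e-06 and 0.0376) and the Adcy3 site that overlaps Cenpo beyond the span (fold 2.54, FDR 2.06e-05). In the authors' deposited table for naive cells 0.0171% of sites passed and none of the 71 did, where the edgeR test on the same counts called 1.

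**Figure D4:**
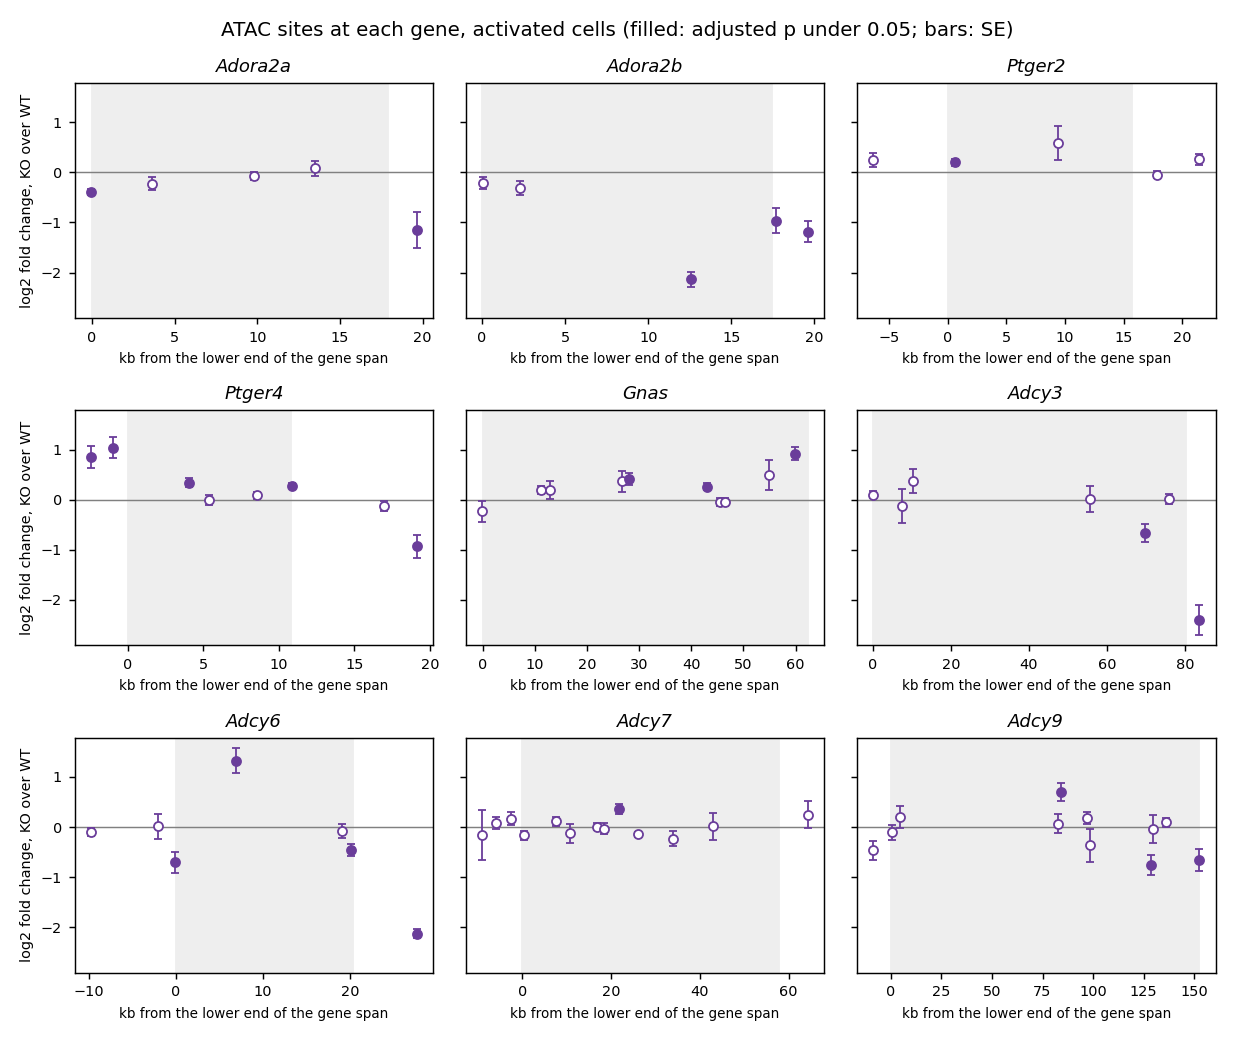
Log2 fold change of KO over WT at each ATAC site in activated cells (vertical axis, with SE) by the distance of the site's centre from the lower end of the gene span (horizontal axis, kb); the span is shaded and filled points passed the test. The lowest points lie at -2.39 for Adcy3, -2.14 for Adora2b and -2.13 for Adcy6, and 4 of the 8 Ptger4 points are filled above 0. That Adcy3 point passed the filter on low counts only through activated WT cells, where it is higher.

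The counts of the lists that follow stand beside 5.89% of all genes higher and 9.04% lower in activated KO cells, and 19.7% higher and 18.8% lower with forskolin. Counts of 1 or 2 genes are near those shares and say nothing about a list. Among the other genes of the pathway, 32 further genes of Gs-coupled receptors were listed and 7 were tested in activated cells, of which 1 was higher and 1 lower in KO. Gpr65, a receptor that senses acid, averaged 13.7 ± 2.22 CPM in activated KO against 84.5 ± 22.3 CPM in activated WT cells (log2 fold change -2.64 ± 0.18, adjusted p = 3.72e-07). Hrh2, which encodes the histamine H2 receptor, averaged 3.44 ± 0.935 CPM in KO against 1.68 ± 0.606 CPM in WT (1.01 ± 0.28, adjusted p = 0.0222). With forskolin 2 of 7 were higher in KO and none was lower, with Hrh2 at 1.54 ± 0.19 (adjusted p = 1.80e-07) and Ptgir, which encodes the prostacyclin receptor, at 0.78 ± 0.13 (adjusted p = 2.69e-05). Of 6 further cyclase genes none passed the filter on low counts, and each held at most 24 counts over the 3 libraries of a group. Receptors coupled to Gi, which inhibits cyclases, were called lower in KO for 2 of 10 tested in activated cells and for 7 of 8 tested with forskolin. In both, Ccr7 and S1pr1, which guide T cells into and out of lymph nodes, were lower in KO (Ccr7 -2.53 ± 0.08 activated and -0.73 ± 0.04 with forskolin, S1pr1 -1.13 ± 0.14 and -1.01 ± 0.03).

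Genes that supply or remove the 2 ligands were counted in the same way. For adenosine, 3 of 9 genes were higher and none was lower in activated KO cells. Slc29a1, which encodes a nucleoside transporter, averaged 208 ± 8.29 CPM in KO against 149 ± 11.9 CPM in WT (0.46 ± 0.07, adjusted p = 0.000260). Nt5e, which encodes the ectoenzyme CD73 that makes adenosine, was higher by 0.66 ± 0.16 (adjusted p = 0.00832), and Ada, which encodes the deaminase that removes it, by 0.44 ± 0.13 (adjusted p = 0.0325). With forskolin 2 of 8 tested genes of adenosine handling were higher and 2 were lower in KO, close to the 19.7% and 18.8% of all genes. For prostaglandin E2, 1 of 5 tested genes was lower in activated KO cells, Ptgs2, which encodes the inducible cyclooxygenase. It held 27 counts over the KO and 80 over the WT libraries (-1.59 ± 0.38, adjusted p = 0.0128). Of the calls in these lists, those of Hrh2, Gnai3, Grk5, Nt5e, Ada, Ptgs2, Prkx and Prkar2a were each lost in 1 or more of 14 alternatives, Ada most often, with 8 kept.

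Cyclic AMP is removed by phosphodiesterases, and 4 of 11 of their tested genes were lower and none was higher in activated KO cells, where 9.04% of all genes were lower. Pde4d averaged 6.50 ± 0.445 CPM in KO against 68.5 ± 2.19 CPM in WT (-3.42 ± 0.17, adjusted p = 9.15e-09), and Pde3b averaged 12.9 ± 0.936 CPM in KO against 108 ± 11.9 CPM in WT (-3.09 ± 0.14, adjusted p = 1.32e-09). With forskolin 6 of 11 were lower and 1 was higher in KO, and in naive cells 2 were lower, Pde3b and Pde4d. Downstream of cyclic AMP, 4 of 8 tested effector genes were lower in activated KO cells, among them Prkaca itself, Prkx (-0.41 ± 0.10, adjusted p = 0.0117), which encodes a related kinase, and Prkar2a (-0.30 ± 0.08, adjusted p = 0.0134), which encodes a regulatory subunit of PKA. Prkaca is the check of the knockout and adds nothing to that count. In naive cells 1 effector gene, Prkaca, was lower, and no gene of the remaining lists was called there. Between the receptor and the cyclase, 1 of 8 further G alpha genes was lower (Gnai3, which encodes an inhibitory subunit, -0.22 ± 0.06, adjusted p = 0.0153). Of 10 tested G beta and gamma genes 2 were lower. Gng4 had no count in the activated KO libraries and 74 counts in WT, which makes it at least 24.7-fold lower in KO (KO taken at 3 counts over the group), and Gnb4 was at -0.79 ± 0.18 (adjusted p = 0.00505). Of 14 tested genes of regulators of G proteins and receptors, 1 was higher (Grk5, a receptor kinase, 0.50 ± 0.14, adjusted p = 0.0240) and 2 were lower. These were Rgs2, which is known to bind cyclases and to limit their output, at -1.32 ± 0.20 (adjusted p = 0.000563), and Rgs16 at -0.49 ± 0.09 (adjusted p = 0.000669). With forskolin Rgs2 averaged 10.3 ± 0.759 CPM in KO against 71.8 ± 2.22 CPM in WT (-2.82 ± 0.08, adjusted p = 4.25e-22).

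**Figure D5:**
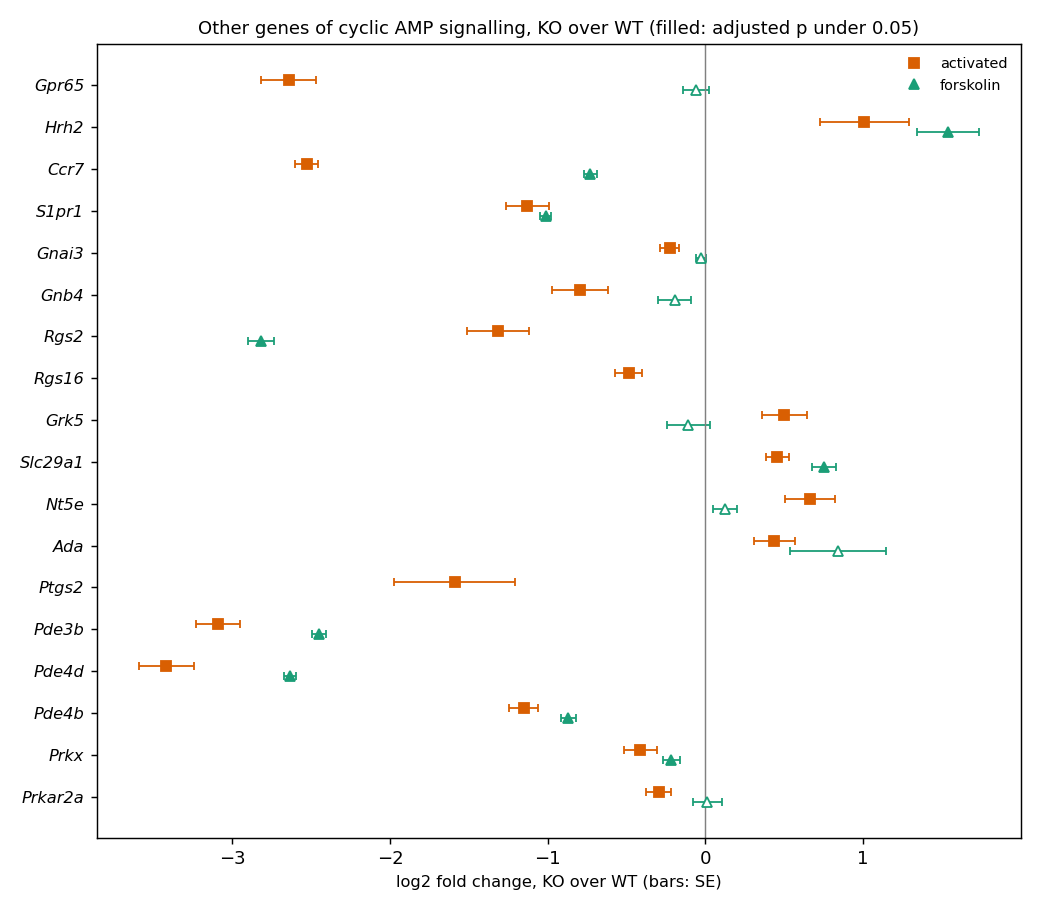
Log2 fold change of KO over WT (horizontal axis) with its SE in activated and forskolin-treated cells for named genes of the lists around the 9 members; filled symbols passed the test, and Gng4 is left out because its activated KO libraries had no count, and Prkaca because it checks the labels. Of the genes plotted, Pde4d and Pde3b lie lowest in activated cells at -3.42 and -3.09, and Hrh2 lies highest at 1.01.

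Over the 18 RNA libraries, the levels of the members fell into patterns that follow the condition. On the log2(CPM + 1) scale Pearson's r was 0.98 between Ptger2 and Ptger4, 0.96 between Adcy3 and Adcy7, and -0.95 between Ptger2 and Adcy7. Adcy6 and Adora2a, both lower in activated KO cells, had an r of -0.59. Adora2b, also lower there, was not included in the correlations. The genes most like each member were Abr for Adcy3 (r = 0.997), Skil for Adcy6 (0.966), Gramd4 for Adcy7 (0.997), Cish for Adora2a (0.978), Acbd6 for Ptger2 (0.990), Mvk for Ptger4 (0.992) and Eno1 for Gnas (0.996). Adcy9, the least abundant of the 8 in counts, had no close match, with Dnpep at 0.877. The 18 points share genotype, condition and library, and come from tables that were deposited separately, so these values describe the likeness and test nothing.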

How the data were processed

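Unscaled whole-number counts per gene were deposited in 2 RNA tables (naive with activated, and forskolin alone). The authors also gave counts per ATAC site with their own log2 group means, log2 fold (WT minus KO), p-value and FDR. The build was mm10, per the submitters' processing notes. The aligner, counter, peak caller and the authors' test are not given in the sources used here. Features without a symbol (1314, with 0.128% to 0.159% of a library's counts) were left out. The members and lists were chosen with earlier results of these data known.

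Counts were tested with edgeR 4.0.16 (R 4.3.3): filterByExpr, TMM, a robust quasi-likelihood fit with a mean per group, and Benjamini-Hochberg adjustment at 0.05 over all genes or sites. The 12 naive and activated RNA libraries shared a fit, the 6 forskolin libraries had their own, and all 18 were fitted together for differences of KO effects. The 12 ATAC libraries shared a fit. CPM is the count over the library's total. Tests were tried on simulated data. Results were recomputed with upper-quartile or RLE scaling, without the low-count filter or with a CPM floor of 1, DESeq2 1.42.0, limma-voom 3.58.1, the replicate number as a block, each library left out, and for ATAC a window of 2 kb, total scaling and the deposited FDR. Named list genes are up to 3 per list with the smallest p among those called in activated cells. For each gene the site over its start and up to 4 called sites with the smallest p were candidates, and genes named with forskolin only were chosen after their values were seen. Same-numbered activated KO and WT RNA libraries deviated together (r of 0.557, 0.280 and 0.236), and so did activated and naive KO libraries (0.360, 0.180 and 0.126), as a pattern in the data since the labels do not say what a number marks. Activated KO and naive WT libraries did so as well (0.363, 0.117 and 0.185). In the remaining comparisons same-numbered libraries had an r of 0.1 or less in at least 1 of the 3 pairs. Among differently numbered activated libraries, KO 2 with WT 3 gave 0.254 and KO 3 with WT 2 gave 0.194. Replicate 1 against 2 or 3 gave -0.395 to -0.308. With the block, 5 members were called in activated cells, as without it. Floors and the bounds drawn from them cover counting error only. The SDs and SEs include the spread between libraries.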

Additional observations from a re-analysis of the deposited data

Results flagged for a closer look

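Each of these results was picked out because the effect of the knockout differed between 2 conditions by a test of the difference itself. Adcy6 differed by -1.69 between activated and naive cells and by 2.09 between forskolin-treated and activated cells, on the log2 scale. Its KO over WT change was -1.64 in activated, 0.04 in naive and 0.41 in forskolin-treated cells. Adora2a differed by -0.62 between activated and naive cells, by 1.20 between forskolin-treated and activated cells and by 0.57 between forskolin-treated and naive cells. Ptger4 differed by 0.37 between activated and naive cells. Gnas differed by 0.36 between forskolin-treated and activated cells and by 0.28 between forskolin-treated and naive cells. The forskolin libraries were rested in IL-7 and deposited in their own table, so the agent, the rest and the table cannot be told apart.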

How the results depend on the processing

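Calls of members kept in every alternative that tested them were 4 of 5 in activated cells, 5 of 6 with forskolin, 8 of 8 for activation in KO, 8 of 9 for activation in WT, and 1 of 3, 3 of 3 and 1 of 2 for the differences of KO effects between activated and naive, forskolin-treated and activated, and forskolin-treated and naive cells. The kept calls include Adora2b in activated cells and for activation, and Ptger2 with forskolin. Both passed the filter on low counts through the group where they are higher, so they add nothing to these counts. With the replicate block 7 members were called with forskolin, where Adcy3 was added (adjusted p = 0.0452), and 3 for the difference between forskolin-treated and naive cells, where Adcy6 was added (adjusted p = 0.0495), and the block changed no other call of a member. For that difference 1 member was called with no filter on low counts, and 1 to 4 with single libraries left out. For the difference between activated and naive cells 1 to 3 were called with single libraries left out. Of the sites, 4 were called in activated cells by the authors' deposited FDR, where 24 were called by edgeR, and in naive cells 0 by the deposited FDR, 2 with the replicate block and 0 to 2 with single libraries left out. The sign of members that passed no test turned with single libraries left out. The log2 ranges were -0.085 to 0.11 for Adcy9 in activated cells and -0.13 to 0.12 with forskolin, -0.056 to 0.19 for Adcy6 and -0.14 to 0.11 for Adora2a in naive cells, -0.36 to 0.31 for Ptger2 between activated and naive cells, and -0.14 to 0.11 for Adcy9 between forskolin-treated and activated cells. The cause was not tested. Upper-quartile scaling turned the split of all calls in activated cells to 987 higher and 843 lower in KO, against 706 higher and 1083 lower with TMM, and that of the difference between forskolin-treated and activated cells to 1123 and 1180, against 1548 and 734. Depth limits Adora2b, Adcy9 and, with forskolin, Ptger2, which rest on few counts.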
